A study of Homo sapiens with 24 samples.

Results

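The collagen genes are the genes whose array symbol consists of COL, digits, the letter A and digits, with nothing after. There were 44 of them among the 25029 genes with probe sets of a single symbol, and 41 passed the filter on low values that left 17329 genes to test. RNA had been measured on 24 arrays of 2 human cell lines in 8 groups of 3 arrays. The groups were HEK293 doxycycline and HEK293 mock at 24 h, the same pair at 72 h, BJ-hTERT doxycycline and BJ-hTERT mock at 24 h, and that pair at 72 h. HEK293 derives from human embryonic kidney. The BJ-hTERT line comes from foreskin fibroblasts that express hTERT, the catalytic subunit of telomerase. Cells of all 8 groups carried an HA-tagged YWHAE-NUTM2 fusion gene that doxycycline switches on, and mock cells received water in its place. Each line was thus a single engineered line, and no group received doxycycline without the construct, so an effect of the drug itself and an effect of the fusion cannot be told apart. Nothing in the labels says that the 3 arrays of a group came from separate cultures. The p-values below therefore measure the spread between arrays, which may be technical, and the number of arrays limits the precision of every value.

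Collagens are proteins built from 3 intertwined alpha chains, and each collagen gene encodes an alpha chain. Fibril-forming collagens assemble into the rope-like fibrils of skin, bone, cartilage and vessel walls, and fibril-associated collagens with interrupted helices coat those fibrils. Type IV collagens form the sheet of basement membranes, type VI collagens form beaded filaments around cells, and others span the cell membrane or anchor epithelia. Fibroblasts are the main makers of fibrillar collagen in connective tissue.

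By these classes the 44 genes comprised 11 fibril-forming genes (COL1A1, COL1A2, COL2A1, COL3A1, COL5A1, COL5A2, COL5A3, COL11A1, COL11A2, COL24A1 and COL27A1) and 10 fibril-associated genes (COL9A1, COL9A2, COL9A3, COL12A1, COL14A1, COL16A1, COL19A1, COL20A1, COL21A1 and COL22A1). Another 6 encode basement membrane chains (COL4A1 to COL4A6) and 5 encode beaded filament chains (COL6A1, COL6A2, COL6A3, COL6A5 and COL6A6). The remaining classes were the short-chain network (COL8A1, COL8A2 and COL10A1), the anchoring fibril (COL7A1), the transmembrane collagens (COL13A1, COL17A1, COL23A1 and COL25A1), the multiplexins (COL15A1 and COL18A1), and COL26A1 and COL28A1, kept apart as other. COL6A5, COL10A1 and COL28A1 were not tested, because no group mean of theirs reached the filter value of log2 2.83. Their arrays spanned 1.77 to 2.50 for COL6A5, 2.02 to 2.83 for COL10A1 and 1.55 to 2.68 for COL28A1. All levels are log2 probe set intensities averaged per gene. Since probes differ in brightness, a gene was compared only with itself between groups.

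No array stood apart from its group, with array medians between log2 3.92 and 4.05 and mean correlations of an array with its group between 0.980 and 0.984 across genes. The fusion partner gene NUTM2B rose with doxycycline in all 4 comparisons (± SE, n = 3 arrays per group). Its log2 difference in HEK293 was 2.16 ± 0.29 at 24 h and 2.33 ± 0.29 at 72 h. The BJ-hTERT values were 1.90 ± 0.29 and 1.95 ± 0.29. Of 10 fibroblast markers, all had group means at or above 2.83 in every BJ-hTERT group, and 5 to 7 did in HEK293. Of 8 genes listed as HEK293 markers, PAX2, LIN28B, NEFL, INA and SOX11 had higher means in HEK293 than in BJ-hTERT in every group. KRT18 and CDH2 did not separate the lines that way, with mock means at 24 h of 7.18 and 9.13 in BJ-hTERT against 7.08 and 8.46 in HEK293, and NEFM had means of 2.04 to 3.79 over the 8 groups. In HEK293 all 4 epithelial markers reached 2.83. In BJ-hTERT 2 of the 4 did in mock cells and 3 with doxycycline at each time. EPCAM had means of 7.73 to 8.05 in HEK293 and 2.00 to 2.53 in BJ-hTERT. Keratinocyte and leukocyte markers (3 of each) lay below 2.83 in all 8 groups. Of 4 cartilage markers, ACAN and HAPLN1 lay below it in all groups. MATN1 had means of 2.39 to 3.00, on both sides of it, and COMP had means of 3.46 to 3.75. Of 5 endothelial markers, PECAM1 and CDH5 lay below it in all groups. VWF (2.46 to 3.03) and KDR (2.27 to 2.88) had means on both sides of it, and TEK had means of 5.49 to 5.88 in BJ-hTERT. The summed level of the 10 fibroblast markers spanned 75.00 to 77.02 on BJ-hTERT doxycycline arrays and 72.64 to 75.31 on BJ-hTERT mock arrays at 24 h, and 77.63 to 78.40 against 76.71 to 79.94 at 72 h. That of the 8 HEK293 markers in BJ-hTERT overlapped at 24 h and was apart at 72 h, at 34.25 to 35.04 with doxycycline against 33.53 to 34.24 in mock cells. Their part in the collagen results was not tested. In RNA from whole cultures, fewer cells making a collagen and less of its RNA per cell cannot be told apart.

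Mock cells of the lines differed widely in collagen RNA, and most of the large differences ran toward BJ-hTERT. At 24 h limma called 27 of the 41 collagen genes, 19 higher and 8 lower in BJ-hTERT, or 65.9%, where 50.7% of all genes tested were called, 21.8% higher and 28.9% lower. At 72 h it called 29, 21 higher and 8 lower, or 70.7%, against 51.3% of all genes (22.6% higher and 28.8% lower). Arrays of the lines did not overlap for 29 collagens at 24 h and 32 at 72 h, against 55.7% and 57.1% of all genes. A difference over 2-fold at both times was found for 19 collagen genes (46.3%), against 19.9% of all genes tested, and 10 of the 11 collagens that differed over 4-fold at both times were higher in BJ-hTERT, where 605 of the 1241 such genes among all tested were. The median difference was 0.26 log2 at 24 h and 0.40 at 72 h, where all genes had medians of -0.06 and -0.03. A gene is called here at a Benjamini-Hochberg adjusted p under 0.05 over all genes tested.

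Of the 11 fibril-forming genes, 7 were called higher and 1 lower in BJ-hTERT at 24 h, with a class median of 2.84 log2. COL1A2, which encodes a chain of type I collagen, the main collagen of skin and bone, read 10.11, 10.07 and 10.19 on the BJ-hTERT mock arrays at 24 h and 2.70, 3.15 and 2.95 on the HEK293 mock arrays. No array of either line came near the other line, and the difference was 7.19 ± 0.14 log2 at 24 h and 7.77 ± 0.14 at 72 h. Its partner chain COL1A1 was higher by 5.04 ± 0.13 and 5.51 ± 0.13. COL3A1, whose product mixes with type I fibrils in skin and vessels, was higher by 4.05 ± 0.14 and 5.08 ± 0.14. COL5A1 and COL5A2 encode chains of type V collagen, which starts type I fibrils, and were higher by 2.84 ± 0.17 and 4.82 ± 0.17 at 24 h. COL11A1, a type XI chain best known from cartilage fibrils, was higher by 3.52 ± 0.16 at 24 h and 4.12 ± 0.16 at 72 h. HEK293 means of COL5A2 at 24 h (2.74) and of COL11A1 at both times (2.61 and 2.43) lay below the filter value, so the sizes of those differences are uncertain. COL2A1, the main cartilage collagen, went the other way and was lower in BJ-hTERT by 0.73 ± 0.16 log2 at 24 h.

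Outside the fibril-forming class, COL6A3, which encodes the long chain of type VI collagen, read 9.96, 9.66 and 10.10 in BJ-hTERT mock cells at 24 h against 3.18, 3.01 and 3.06 in HEK293 mock cells, a difference of 6.82 ± 0.12. The companion chains COL6A1 and COL6A2 were higher by 1.33 ± 0.15 and 2.69 ± 0.16, so all 3 chains of the common type VI trimer were called, with unequal differences. COL12A1, whose product bridges fibrils and bends with them under load, was higher by 5.71 ± 0.12 at 24 h and 6.23 ± 0.12 at 72 h. COL8A1, a short-chain collagen of vessel walls and the cornea, was higher by 3.50 ± 0.25, though its HEK293 mean of 2.44 lay below the filter value. The basement membrane genes split. COL4A1 and COL4A2, the chains found in nearly all basement membranes, were higher in BJ-hTERT by 2.35 ± 0.09 and 1.97 ± 0.14 at 24 h. COL4A4, a chain of kidney glomerular membranes, was lower by 0.56 ± 0.22 at 24 h and 0.64 ± 0.22 at 72 h, and its partner COL4A3 was called lower only at 72 h (-0.97 ± 0.18), with a BJ-hTERT mean of 2.70 below the filter value. The COL4A4 call was lost in 3 of 6 fits that left out an array at each time (adjusted p up to 0.204 at 24 h and 0.0946 at 72 h), and at 24 h also with no filter and with only the 6 arrays compared.

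The collagens lower in BJ-hTERT at both times were 7, and none was a type I, III, V or VI gene: COL2A1, COL4A4, COL9A3 (whose arrays overlapped at 24 h), COL14A1, COL19A1, COL21A1 and COL25A1. COL14A1 encodes a fibril-associated collagen. Its mock arrays at 24 h read 2.68, 2.41 and 2.96 in BJ-hTERT and 6.10, 5.57 and 5.97 in HEK293. The lines did not overlap, and the difference was -3.20 ± 0.23 at 24 h and -2.88 ± 0.23 at 72 h, with a BJ-hTERT mean of 2.69 at 24 h that lay below the filter value. COL25A1, a transmembrane collagen made by neurons, was lower by 1.63 ± 0.21 log2 at both times, and COL21A1, a fibril-associated collagen, by 1.00 ± 0.14 at 24 h and 2.30 ± 0.14 at 72 h. The BJ-hTERT mean of COL21A1 at 72 h (2.54) lay below the filter value, so the size of that difference is uncertain.

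Smaller differences toward BJ-hTERT were called in several other classes. COL7A1, which forms the fibrils that anchor epidermis to dermis, was higher in BJ-hTERT by 1.95 ± 0.12 log2 at 24 h, the transmembrane gene COL13A1 by 2.22 ± 0.19, and COL16A1, a fibril-associated collagen, by 1.75 ± 0.13. COL18A1, whose product releases the fragment endostatin, was higher by 1.57 ± 0.19, and COL27A1, a cartilage fibril collagen, by 0.99 ± 0.25. COL9A2 and COL4A6 were called at 24 h only (0.49 and -0.51), and COL15A1, COL11A2, COL4A5 and COL4A3 at 72 h only (0.50, 0.42, 0.40 and -0.97). Leaving out an array ended the call of COL4A6 in 5 of 6 fits (adjusted p up to 0.173), that of COL9A2 in 3 (0.110), and those of COL15A1 and COL11A2 in 2 each (0.0554 and 0.0784). With the median of probe sets the calls of COL9A2 (0.349), COL4A6 (0.151), COL4A5 (0.106) and, at 24 h, COL2A1 (0.155) were lost. COL9A2 was also lost with brighter probe sets only, COL4A6 with no filter and COL11A2 with only the 6 arrays compared. The HEK293 mean of COL15A1 at 72 h (2.45) lay below the filter value. The 10 tested members called at neither time were COL5A3, COL6A6, COL8A2, COL9A1, COL17A1, COL20A1, COL22A1, COL23A1, COL24A1 and COL26A1. Counted against the filter value in mock cells at either time, 35 of the 44 genes reached it in both lines. COL8A1, COL11A1 and COL15A1 reached it in BJ-hTERT only, COL4A3 and COL19A1 in HEK293 only, and 4 genes in neither.

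**Figure D1:**
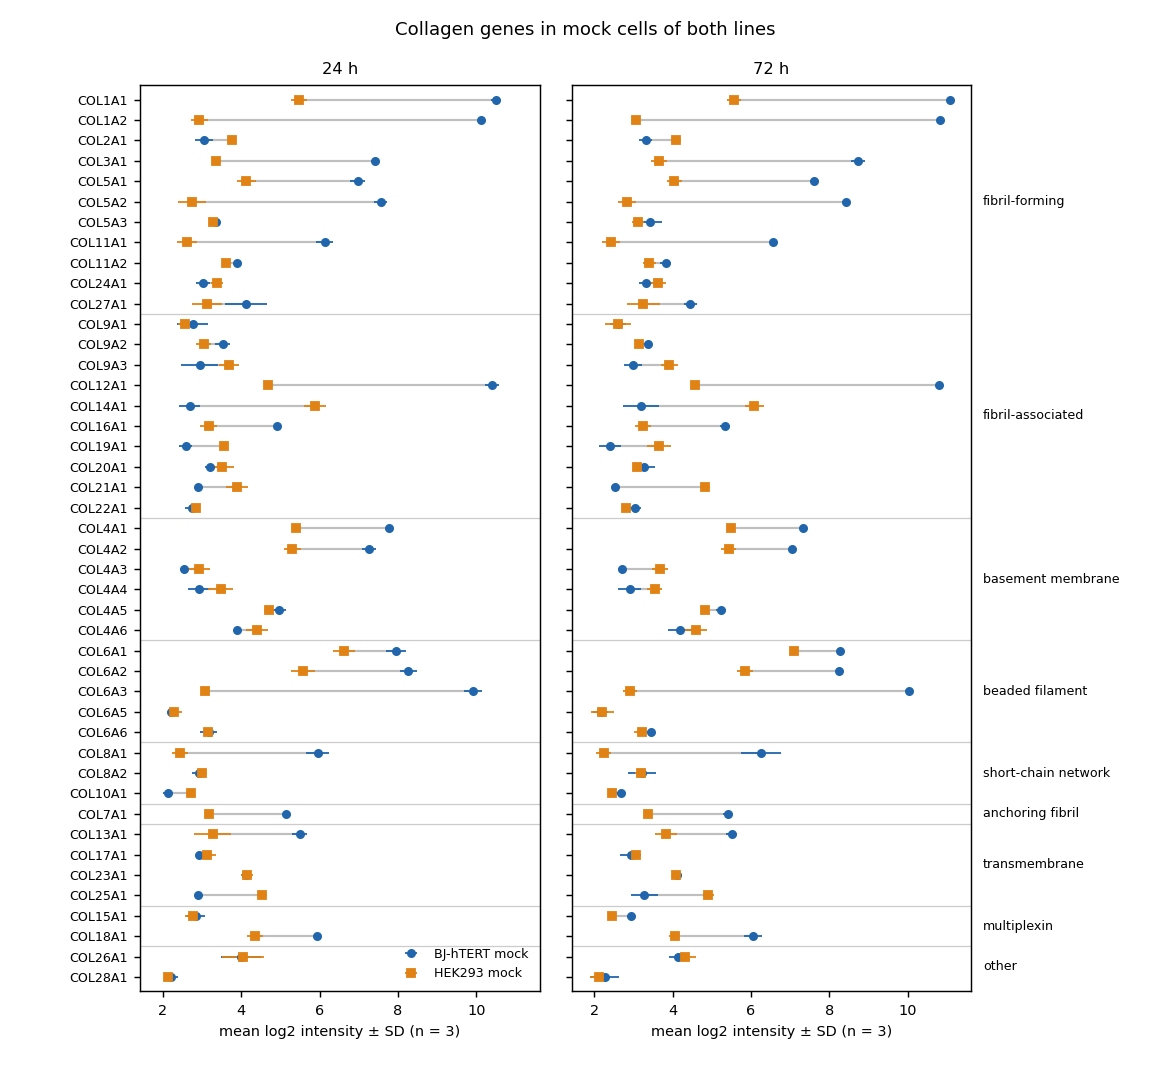
Mean log2 intensity (x axis, bars are SD, n = 3 arrays) of all 44 collagen genes (rows, by class) in BJ-hTERT mock cells (blue circles) and HEK293 mock cells (orange squares) at 24 h (left) and 72 h (right). Long grey lines toward the blue points, such as those of COL1A2, COL6A3 and COL12A1, mark genes higher in BJ-hTERT, and COL14A1 shows the reverse order.

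With doxycycline, few collagens changed in either line. In HEK293 a single member rose and none fell at each time, 1 of 41 or 2.44%, where 0.473% of all genes were called at 24 h and 1.21% at 72 h. In BJ-hTERT 1 member rose at 24 h, against 8.85% of all genes called, so that share lay below the background. At 72 h in BJ-hTERT 4 members rose and 2 fell, or 14.6% of the 41, where 8.62% of all genes were called, 4.03% higher and 4.59% lower. The median member effect was -0.03 log2 in HEK293 at 24 h, 0.05 at 72 h, and 0.09 and 0.08 in BJ-hTERT, near the medians of all genes (0.01, -0.00, 0.02 and -0.01). The called changes lay in COL12A1, COL11A1, COL4A1, COL4A5, COL3A1 and COL6A3.

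**Figure D2:**
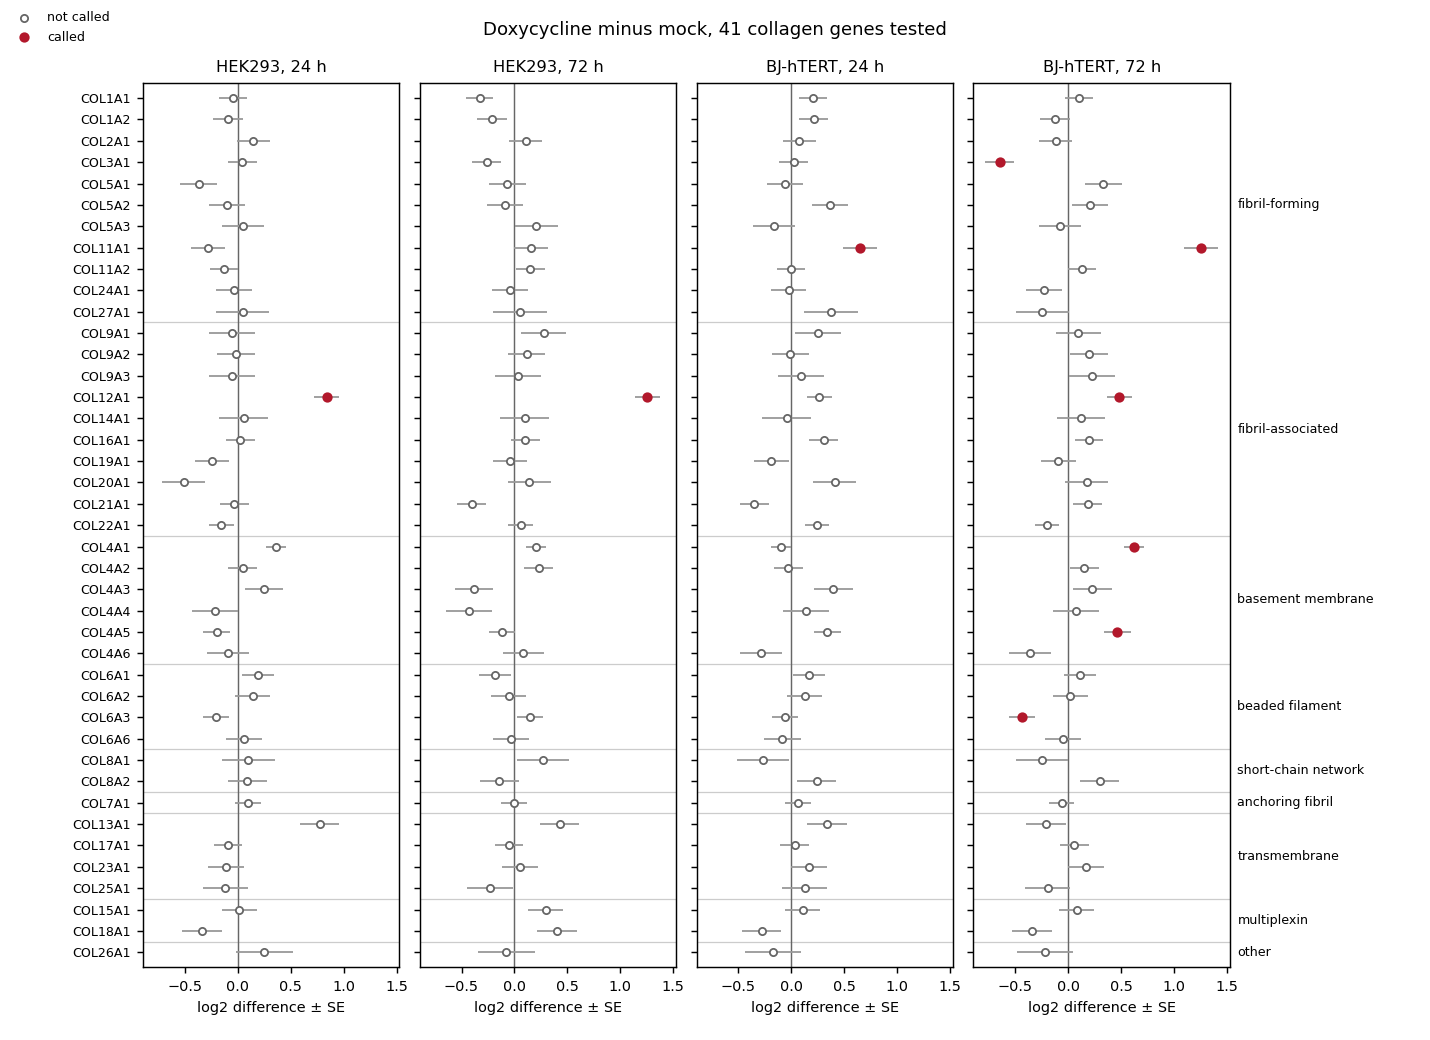
Doxycycline minus mock log2 difference (x axis, bars are SE from limma, n = 3 arrays per group) for the 41 collagen genes tested (rows, by class) in HEK293 and BJ-hTERT at 24 and 72 h. Filled red points are called at an adjusted p under 0.05: COL12A1 alone in HEK293, COL11A1 alone in BJ-hTERT at 24 h, and 6 genes in BJ-hTERT at 72 h.

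COL12A1 was the one collagen called in both lines. It read 5.34, 5.51 and 5.74 in HEK293 doxycycline cells at 24 h, against 4.71, 4.66 and 4.69 in HEK293 mock cells. At 72 h it read 5.83, 5.93 and 5.68 with doxycycline against 4.59, 4.57 and 4.53 in mock cells. Every doxycycline array of HEK293 lay above every mock array at both times. The rise was 0.84 ± 0.12 log2 at 24 h (1.79-fold, limma adjusted p = 0.000491) and 1.25 ± 0.12 at 72 h (2.38-fold, adjusted p = 1.87e-06). The summed level of the 8 genes listed as HEK293 markers was also apart in HEK293, at 58.08 to 58.31 with doxycycline against 54.02 to 55.75 in mock cells at 24 h and 58.51 to 59.61 against 55.26 to 56.28 at 72 h, and its part in the result was not tested. In BJ-hTERT, where mock levels of this gene were far higher, the 72 h arrays read 11.30, 11.29 and 11.23 with doxycycline and 10.86, 10.78 and 10.74 in mock cells. Those groups did not overlap either, and the rise was 0.48 ± 0.12 (1.40-fold, adjusted p = 0.0110). At 24 h in BJ-hTERT the arrays overlapped, at 10.76, 10.74 and 10.49 with doxycycline against 10.52, 10.47 and 10.20 in mock cells, and the difference of 0.26 (95% interval 0.02 to 0.51) was not called. Most probe sets of the gene moved in the same direction. Of 48 distinct COL12A1 probe sets, 42 lay above 0 in HEK293 at 24 h, 45 at 72 h, 46 in BJ-hTERT at 24 h and 48 at 72 h. With only the 6 arrays compared in the fit, the HEK293 call at 24 h was lost (adjusted p = 0.12), and the BJ-hTERT call at 72 h was lost too (0.0850). The median of probe sets also ended the BJ-hTERT call (0.0654).

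COL11A1 rose in BJ-hTERT at both times. At 24 h it read 6.67, 6.77 and 6.90 with doxycycline against 5.88, 6.19 and 6.31 in mock cells, and at 72 h 7.64, 7.83 and 7.95 against 6.49, 6.54 and 6.62. The groups were apart at both times. The rise was 0.65 ± 0.16 log2 at 24 h (1.57-fold, adjusted p = 0.0128) and 1.25 ± 0.16 at 72 h (2.39-fold, adjusted p = 3.31e-05). All 40 distinct probe sets of the gene lay above 0 at 72 h, and 34 did at 24 h. The 24 h call was lost without mock replicate 1 (0.53, adjusted p = 0.0830), without doxycycline replicate 3 (0.59, adjusted p = 0.0599), with the median of probe sets (adjusted p = 0.107) and with only the 6 arrays compared (0.0694). In HEK293 its group means of 2.33 to 2.61 lay below the filter value in all 4 groups, and neither difference there was called. COL11A2, which encodes another chain of type XI collagen, was at 0.13 in BJ-hTERT at 72 h and was not called.

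The promoter windows of both genes are shown because COL12A1 was called in both lines and COL11A1 at both times in BJ-hTERT. Each runs from 250 bases before to 50 bases after the start site, from RefSeq on GRCh38.p14. The windows lie at chr6:75206004-75206303 for COL12A1 and chr1:103108473-103108772 for COL11A1, both on the minus strand and written along the gene. Capitals mark matches to the motifs searched, here the GC box (GGGCGG or its complement) and the CCAAT box.
COL12A1: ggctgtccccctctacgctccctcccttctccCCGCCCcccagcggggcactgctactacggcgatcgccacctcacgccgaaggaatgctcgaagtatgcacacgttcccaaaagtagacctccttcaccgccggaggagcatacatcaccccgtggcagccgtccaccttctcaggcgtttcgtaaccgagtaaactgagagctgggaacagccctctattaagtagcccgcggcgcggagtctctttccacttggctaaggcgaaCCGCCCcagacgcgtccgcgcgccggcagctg
COL11A1: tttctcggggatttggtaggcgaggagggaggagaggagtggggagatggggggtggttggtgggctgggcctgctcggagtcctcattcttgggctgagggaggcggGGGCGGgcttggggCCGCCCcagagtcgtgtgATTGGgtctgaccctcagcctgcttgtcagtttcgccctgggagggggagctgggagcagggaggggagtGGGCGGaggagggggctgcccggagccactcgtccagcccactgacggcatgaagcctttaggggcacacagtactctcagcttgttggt
The COL12A1 window held 2 GC boxes and no CCAAT box, and that of COL11A1 held 3 GC boxes and 1 CCAAT box. Both were rich in G and C, at 63.3% and 66% of bases. Neither held a TATA box (TATAAA), an AP-1 motif (TGANTCA) or an ETS motif (CCGGAAGT), which says only that these letters are not in these windows.

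RefSeq gave 44 windows for 32 of the 44 collagen genes, searched on both strands. GC boxes were found in 24 of those 44 windows (54.5%) and in 44.9% of all 34943 windows, CCAAT boxes in 14 (31.8%) and in 34.6% of all. TATA boxes occurred in 8 (18.2%) and in 11.6% of all windows. They lay with COL6A2, COL6A6, COL7A1, COL10A1, COL13A1, COL17A1 and COL18A1. COL10A1 was not among the genes tested. The others, like most of the 41 collagens tested, were not called in a doxycycline comparison, and a relation to the motif was not tested. An AP-1 motif occurred in 1 of the 44, a window of COL10A1 (7.72% of all windows), and an ETS motif in 0 of the 44 (4.11% of all windows).

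Among the basement membrane genes, COL4A1 rose by 0.62 ± 0.09 log2 in BJ-hTERT at 72 h (1.54-fold, adjusted p = 0.000171). Its arrays read 7.96, 7.87 and 8.0 with doxycycline against 7.29, 7.27 and 7.41 in mock cells, without overlap. At 24 h they lay at 7.72, 7.67 and 7.60 with doxycycline, just below 7.73, 7.75 and 7.80 in mock cells (-0.10, not called). Of 35 distinct probe sets, 33 lay above 0 at 72 h. In HEK293 the gene stood at 5.85, 5.68 and 5.76 with doxycycline against 5.32, 5.54 and 5.36 in mock cells at 24 h. Those arrays did not overlap, but the difference of 0.36 was not called (adjusted p = 0.117). COL4A2, whose chain joins that of COL4A1 in the same trimer, read 7.31, 7.23 and 7.10 with doxycycline and 7.03, 6.98 and 7.16 in mock cells at 72 h in BJ-hTERT. Its groups overlapped, and the difference of 0.15 (95% interval -0.13 to 0.44) was not called, although 33 of its 44 distinct probe sets lay above 0. The difference between the effects on COL4A1 and COL4A2 was not tested.

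COL4A5, a chain of kidney and smooth muscle basement membranes, read 5.86, 5.47 and 5.75 with doxycycline and 5.31, 5.30 and 5.08 in mock cells of BJ-hTERT at 72 h. The groups did not overlap, and the rise was 0.46 ± 0.13 log2 (1.38-fold, adjusted p = 0.0226), with 28 of 36 distinct probe sets above 0. The call was lost without mock replicate 3 (adjusted p = 0.106), doxycycline replicate 1 (0.110) or doxycycline replicate 3 (0.0777), with the median of probe sets (0.159), with only the arrays of the line (0.10) and with only the 6 arrays compared (0.164). Its partner COL4A6 lay at -0.36 in the same comparison and was not called. Of COL4A3 and COL4A4, neither was called with doxycycline in either line.

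The 6 type IV genes lie in head-to-head pairs that share the sequence between their starts, and 2 of these shared windows are shown because a member of each pair rose in BJ-hTERT while its partner was not called. The starts of COL4A1 and COL4A2 are 127 bases apart. Those of COL4A5 and of the COL4A6 window used here, which was picked by its position, are 380 apart. The windows lie at chr13:110307034-110307333 for COL4A2 and chrX:108439588-108439887 for COL4A5, both on the plus strand of GRCh38.p14. Capitals mark the bases that also fall in the partner's window, which runs on the other strand.
COL4A2: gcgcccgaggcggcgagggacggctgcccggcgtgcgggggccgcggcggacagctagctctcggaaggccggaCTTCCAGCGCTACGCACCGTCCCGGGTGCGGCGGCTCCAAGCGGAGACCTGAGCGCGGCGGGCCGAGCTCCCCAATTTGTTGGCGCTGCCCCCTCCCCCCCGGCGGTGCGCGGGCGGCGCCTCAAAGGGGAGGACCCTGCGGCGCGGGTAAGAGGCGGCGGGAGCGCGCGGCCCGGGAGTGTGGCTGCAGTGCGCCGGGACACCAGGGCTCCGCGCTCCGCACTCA
COL4A5: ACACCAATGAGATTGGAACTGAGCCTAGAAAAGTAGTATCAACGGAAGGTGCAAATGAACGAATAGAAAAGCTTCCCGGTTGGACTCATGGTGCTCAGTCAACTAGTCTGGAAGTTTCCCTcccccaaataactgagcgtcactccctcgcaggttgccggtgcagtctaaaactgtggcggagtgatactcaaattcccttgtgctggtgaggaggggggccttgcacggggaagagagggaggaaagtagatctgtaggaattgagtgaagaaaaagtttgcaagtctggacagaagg
The COL4A2 window shared 226 bases with that of COL4A1, and the COL4A5 window shared 121 with the COL4A6 window picked. The first held 77.7% G and C, with 1 GC box and 1 CCAAT box. The second held 49.3% G and C, with 2 CCAAT boxes and no GC box. The third pair, COL4A3 and COL4A4, has starts 419 bases apart and windows that share 82 bases.

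**Figure D3:**
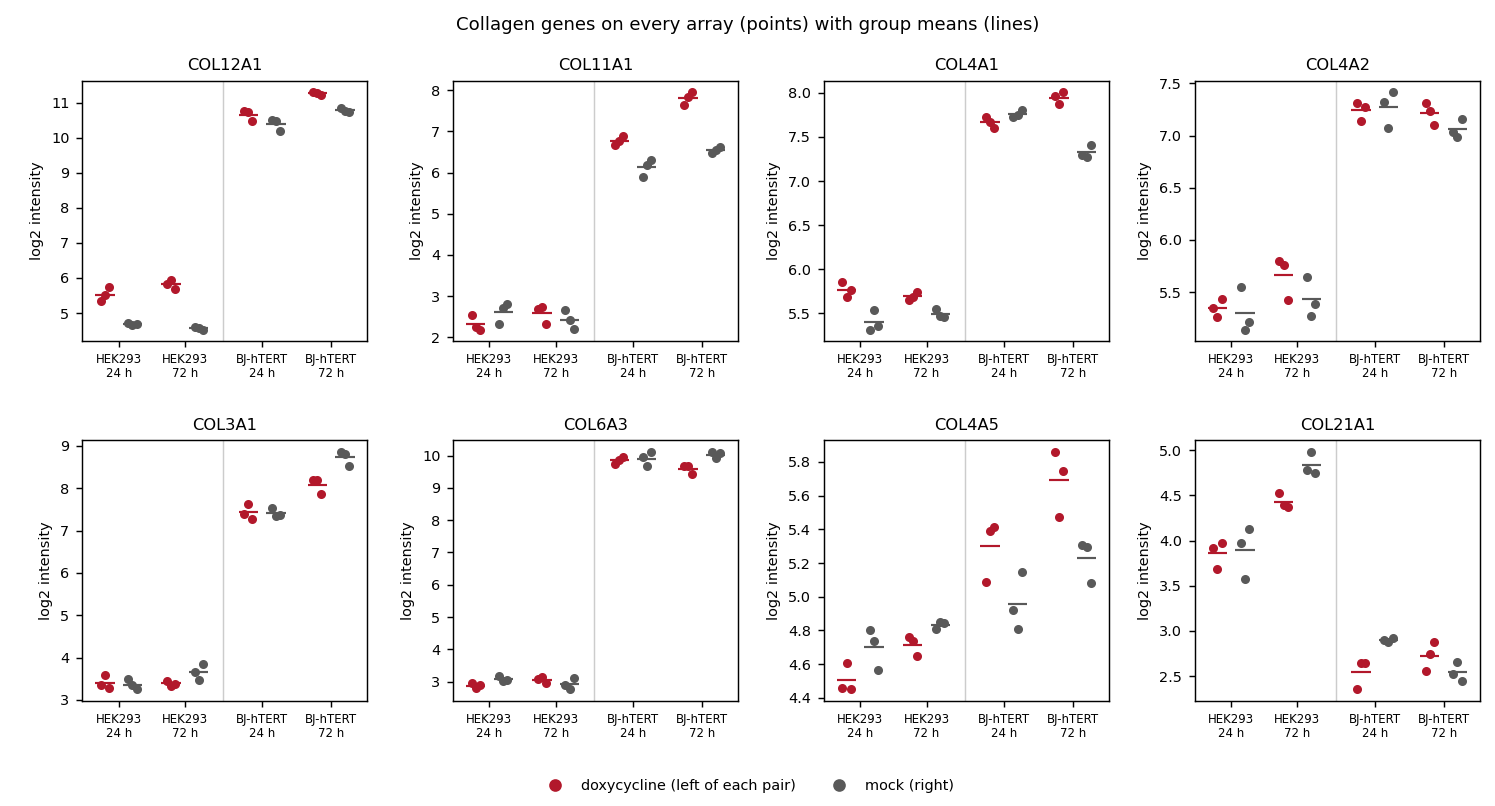
Log2 intensity (y axis, a different range in each panel) of 8 collagen genes on all 24 arrays (points, doxycycline in red left of mock in grey) with group means (lines), for HEK293 and BJ-hTERT at 24 and 72 h. COL12A1 separates doxycycline from mock arrays in HEK293 at both times, COL11A1 does so in BJ-hTERT at both times, and in BJ-hTERT at 72 h COL4A2 overlaps where COL4A1 does not.

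Of the called collagens, 2 fell with doxycycline, both in BJ-hTERT at 72 h. COL3A1 read 8.19, 8.19 and 7.88 with doxycycline against 8.85, 8.82 and 8.53 in mock cells. The groups did not overlap, and the gene fell by 0.65 ± 0.14 on the log2 scale (adjusted p = 0.0038), with 26 of 28 distinct probe sets below 0. The call was lost with the median of probe sets (adjusted p = 0.178) and with only the 6 arrays compared (0.0763). At 24 h the same gene had shown a difference of 0.02, with 7.39, 7.63 and 7.27 against 7.53, 7.34 and 7.36. COL6A3 read 9.68, 9.67 and 9.44 with doxycycline and 10.10, 9.92 and 10.08 in mock cells, again without overlap, and fell by 0.44 ± 0.12 (adjusted p = 0.0309), with 33 of 34 distinct probe sets below 0. That call was lost without mock replicate 1 (adjusted p = 0.107), mock replicate 3 (0.0923) or doxycycline replicate 3 (0.139), with the replicate number as a block (0.0504), with the median of probe sets (0.448), with only the arrays of the line (0.0953) and with only the 6 arrays compared (0.15). COL6A1 (0.11) and COL6A2 (0.02), the other chains of the trimer, were not called.

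The type I genes were not called with doxycycline in either line. In BJ-hTERT at 72 h COL1A1 averaged 11.18 ± 0.04 with doxycycline and 11.08 ± 0.08 in mock cells (SD, n = 3 each), a difference of 0.10 (95% interval -0.17 to 0.38). COL1A2 read 10.75, 10.74 and 10.63 against 10.87, 10.80 and 10.82, a difference of -0.13 (95% interval -0.42 to 0.17). COL5A1 (0.33) and COL5A2 (0.20) were not called there either. In BJ-hTERT at 72 h the fibril-forming class thus had 1 of 11 members up and 1 down, with a median of -0.08. There 4.03% of all genes rose and 4.59% fell. In HEK293 none of the 11 was called at either time, where 0.473% of all genes were called at 24 h and 1.21% at 72 h.

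Groups of arrays that do not overlap were found for 7 collagens in HEK293 at 24 h and 11 at 72 h, where 14% and 17.6% of all genes had them, and for 11 and 8 in BJ-hTERT, where 25.8% and 25.1% did. Among the members that were apart but not called, COL13A1, a transmembrane collagen at cell junctions, read 4.03, 4.07 and 4.02 with doxycycline against 3.81, 2.90 and 3.09 in HEK293 mock cells at 24 h. The difference was 0.77 ± 0.19 (adjusted p = 0.0870). COL20A1, a fibril-associated collagen, read 2.83, 2.99 and 3.18 with doxycycline against 3.26, 3.85 and 3.42 there, a difference of -0.51 that was not called. COL1A1 lay at -0.33 in HEK293 at 72 h, with an adjusted p of 0.310. COL21A1 read 4.52, 4.40 and 4.37 with doxycycline against 4.79, 4.98 and 4.74 in HEK293 mock cells at 72 h, a difference of -0.40 that was not called. The other separated members in HEK293 were COL6A3, COL19A1 and COL22A1 at 24 h, and COL1A2, COL3A1, COL4A1, COL4A3, COL4A5, COL6A1, COL15A1 and COL18A1 at 72 h. In BJ-hTERT they were COL1A1, COL5A2, COL5A3, COL13A1, COL16A1, COL18A1, COL21A1 and COL22A1 at 24 h, COL1A2 at both times, and COL5A1 at 72 h. By class in BJ-hTERT at 72 h, medians were -0.08 for fibril-forming, 0.18 for fibril-associated, 0.19 for basement membrane and -0.01 for beaded filament genes. In HEK293 at 72 h they were -0.04, 0.10, -0.02 and -0.04. The short-chain, anchoring fibril, transmembrane and multiplexin collagens had 0 of 9 tested members called in any doxycycline comparison, and COL26A1, from the other class, was not called either. The shares of all genes called were 0.473% and 1.21% in HEK293 at 24 and 72 h and 8.85% and 8.62% in BJ-hTERT. At unadjusted p under 0.05 there were 5 collagens of 41 in HEK293 at 24 h and 7 at 72 h, where 8.56% and 11.6% of all genes reached it. In BJ-hTERT there were 8 and 6, where 21.2% and 21.4% of all genes did.

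**Figure D4:**
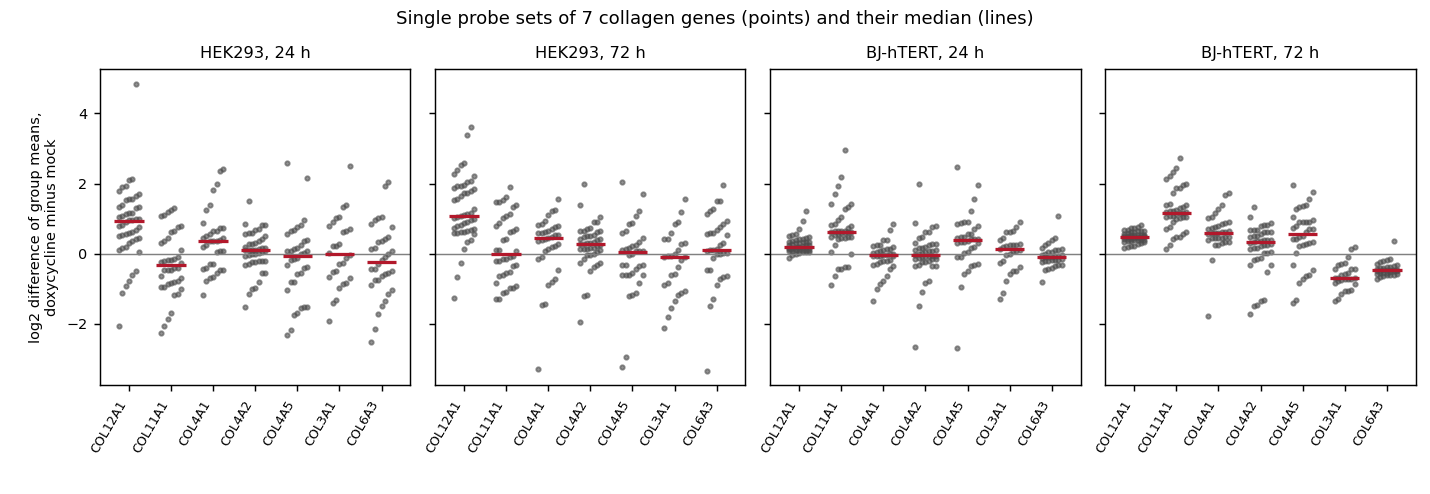
Difference of group means, doxycycline minus mock (y axis, log2), for each distinct probe set (points) of 7 collagen genes, with the median (red line), in HEK293 and BJ-hTERT at 24 and 72 h. In BJ-hTERT at 72 h the points of COL12A1 and COL11A1 all lie above 0 and nearly all of COL3A1 and COL6A3 lie below it, while probe sets of genes with low levels in HEK293 scatter widely around 0.

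The effects on COL11A1 and COL12A1 differed between the lines, in opposite directions. For COL11A1 the BJ-hTERT effect exceeded the HEK293 effect by 0.93 ± 0.23 log2 at 24 h (adjusted p = 0.0204) and by 1.10 ± 0.23 at 72 h (adjusted p = 0.00617). For COL12A1 the BJ-hTERT effect was smaller by this test, at -0.58 ± 0.17 at 24 h (adjusted p = 0.0497) and -0.77 ± 0.17 at 72 h (adjusted p = 0.00779). These were 2 of 41 collagens at each time (4.88%), where 4.74% of all genes at 24 h and 5.27% at 72 h were called, so the family's share was near the background. HEK293 means of COL11A1 below the filter value leave the size of its differences uncertain. Mock means of COL12A1 at 24 and 72 h were 4.69 and 4.56 in HEK293 and 10.40 and 10.79 in BJ-hTERT. A part of these unlike levels in its differences of effects was not tested. With the median of probe sets the 72 h differences were 0.53 for COL11A1 (adjusted p = 0.512) and -0.50 for COL12A1 (adjusted p = 0.332). The 24 h difference of COL12A1 was lost in 6 of 9 alternatives and in 10 of 12 fits that left out an array (adjusted p up to 0.131), and that of COL11A1 in 6 of those 12 fits (up to 0.0656) and with only the groups compared (0.0620). Between 24 and 72 h within a line, limma called 0 collagens in HEK293 and 0 in BJ-hTERT, against 0.0173% and 0.00577% of all genes. At unadjusted p under 0.05 there were 4 of 41 in HEK293 and 6 in BJ-hTERT, where 6.57% and 8.86% of all genes reached it. COL4A1 in BJ-hTERT had the smallest of these p-values, with an effect higher by 0.72 ± 0.13 at 72 h (adjusted p = 0.103).

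Over time in culture, 4 of 11 fibril-forming collagen genes rose in mock BJ-hTERT cells and none fell. At 72 h against 24 h, 4 collagens in all rose and 1 fell, or 12.2% of the 41, where 1.85% of all genes were called (1.16% higher and 0.692% lower), and the median member difference was 0.26 log2 against 0.01 for all genes. In the fibril-forming class 10 of 11 members lay above 0, with a median of 0.42. COL3A1 read 8.85, 8.82 and 8.53 at 72 h against 7.53, 7.34 and 7.36 at 24 h and rose by 1.32 ± 0.14 (2.50-fold, adjusted p = 6.55e-05). COL5A2 read 8.43, 8.50 and 8.31 against 7.74, 7.43 and 7.50 and rose by 0.86 ± 0.17 (adjusted p = 0.0115). Neither gene's groups overlapped. COL1A2 read 10.87, 10.80 and 10.82 at 72 h against 10.11, 10.07 and 10.19 at 24 h, a rise of 0.71 ± 0.14 (adjusted p = 0.0119). COL1A1 averaged 11.08 ± 0.08 at 72 h and 10.51 ± 0.13 at 24 h (SD, n = 3 each), a rise of 0.57 ± 0.13 (adjusted p = 0.0289). In these type I genes, too, all 72 h arrays lay above all 24 h arrays, and all 17 distinct probe sets of COL1A1 and all 35 of COL1A2 lay above 0. COL5A1 read 7.50, 7.72 and 7.61 at 72 h against 6.75, 7.06 and 7.09 at 24 h, and its difference of 0.64 ± 0.17 was not called (adjusted p = 0.0633).

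COL4A1 went the other way in mock BJ-hTERT cells, with 7.29, 7.27 and 7.41 at 72 h against 7.73, 7.75 and 7.80 at 24 h, and fell by 0.44 ± 0.09 on the log2 scale (adjusted p = 0.0199). These arrays did not overlap, and 31 of 35 distinct probe sets lay below 0. In fits that left out a single array the difference stayed at 0.50 to 0.63 for COL1A1 and at -0.48 to -0.41 for COL4A1. Several calls over time were still lost in such fits. That of COL1A1 was lost without any of 5 of the 6 arrays except mock 24 h replicate 3 (highest adjusted p = 0.129), and that of COL4A1 without any except mock 72 h replicate 3 (highest 0.0929). That of COL1A2 was lost without 24 h replicate 2 (0.0604) or 72 h replicate 1 (0.0531), and that of COL5A2 without 24 h replicate 2 (0.0642) or 72 h replicate 2 (0.0597). The median of probe sets ended the calls of COL1A1 (adjusted p = 0.285), COL1A2 (0.198), COL5A2 (0.267) and COL4A1 (0.42), and only that of COL3A1 was kept. With only the arrays of the line the calls of COL1A1 (0.0556) and COL4A1 (0.1003) were lost. With only the 6 arrays compared no collagen was called, COL3A1 included (adjusted p = 0.0613).

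The 72 h mock arrays of BJ-hTERT enter both this comparison and that of doxycycline with mock at 72 h, so the values are set side by side only. COL3A1 averaged 8.09 with doxycycline at 72 h, 8.73 in mock cells at 72 h and 7.41 in mock cells at 24 h. COL4A1 averaged 7.95 with doxycycline at 72 h, 7.32 in mock cells at 72 h and 7.76 in mock cells at 24 h. COL12A1 averaged 11.28, 10.79 and 10.40 in the same order, and COL11A1 7.81, 6.55 and 6.13. For COL3A1 the doxycycline mean lay between the mock means, and for the other 3 genes it lay above both.

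In HEK293 mock cells 1 collagen was called over time, or 2.44%, where 0.369% of all genes were called. COL21A1 read 4.79, 4.98 and 4.74 at 72 h against 3.97, 3.57 and 4.13 at 24 h and rose by 0.94 ± 0.14 (1.92-fold, adjusted p = 0.00417), with no overlap and 19 of 27 distinct probe sets above 0. The call was lost with the median of probe sets (adjusted p = 0.364), with only the arrays of the line (0.0699) and with only the 6 arrays compared (0.245). COL4A3 read 3.47, 3.87 and 3.68 at 72 h against 3.00, 3.14 and 2.61 at 24 h, and the difference of 0.75 ± 0.18 was not called (adjusted p = 0.0705). COL6A1 read 7.0, 7.09 and 7.20 against 6.71, 6.85 and 6.31, apart but not called (0.47, adjusted p = 0.173). COL13A1 read 3.71, 3.61 and 4.14 against 3.81, 2.90 and 3.09, with overlap. COL20A1 read 3.06, 3.03 and 3.17 against 3.26, 3.85 and 3.42 and was not called (-0.42). None of the fibril-forming genes was called there, and COL1A1, COL1A2 and COL3A1 differed by 0.09, 0.13 and 0.29. Groups that do not overlap were found for 14 collagens over time in BJ-hTERT and 10 in HEK293, where 19.4% and 17% of all genes had them.

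**Figure D5:**
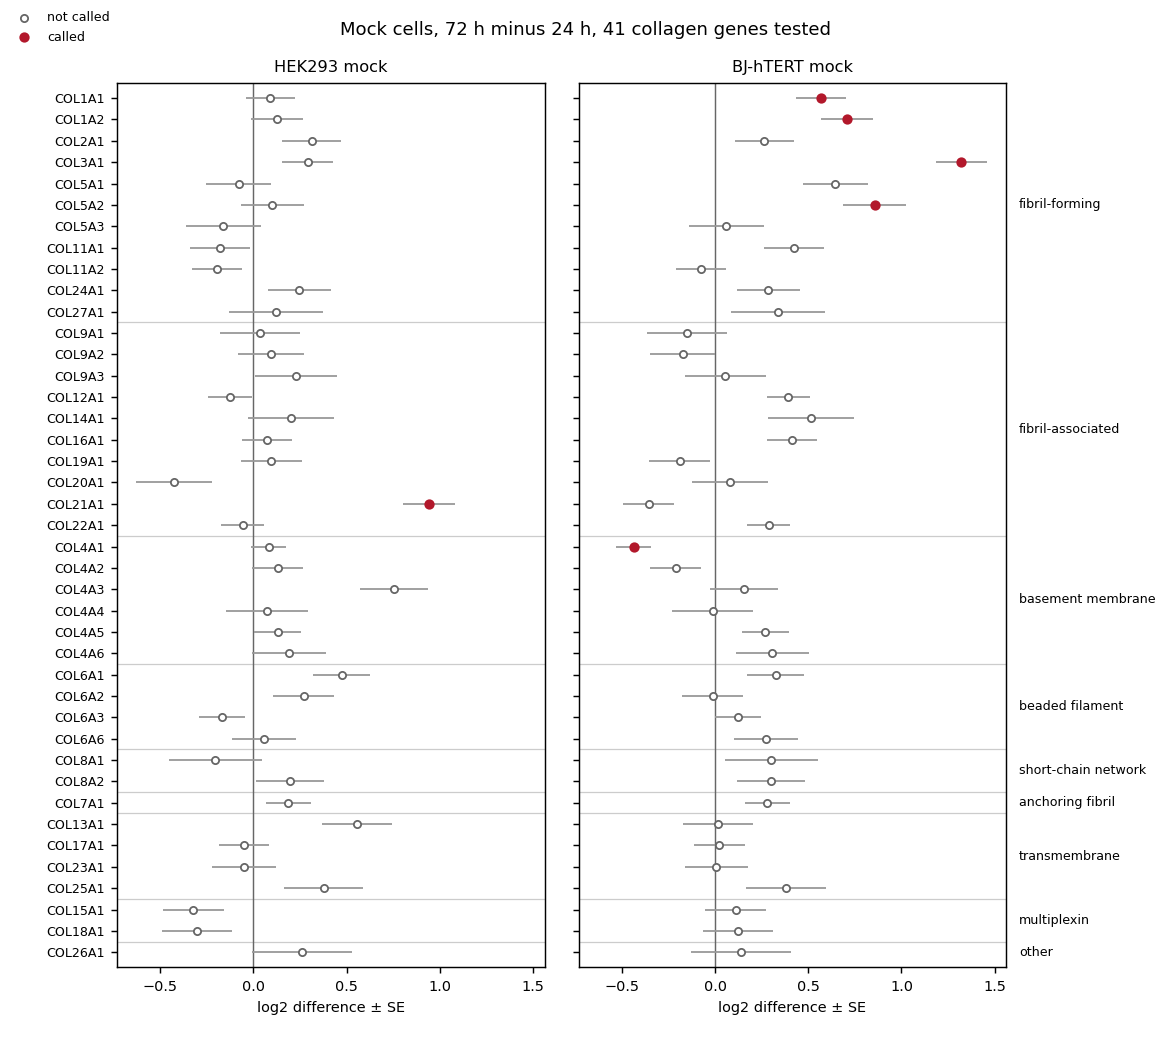
Log2 difference of 72 h minus 24 h in mock cells (x axis, bars are SE from limma, n = 3 arrays per group) for the 41 collagen genes tested (rows, by class), HEK293 left and BJ-hTERT right. Filled red points are called: COL21A1 in HEK293, and COL1A1, COL1A2, COL3A1, COL5A2 (higher) and COL4A1 (lower) in BJ-hTERT.

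The enzymes, carriers, partners and receptors of collagen were followed in 8 gene lists, whose other members are not named. Unlike those of collagens, calls of list genes were not checked under other settings or without single arrays. Some lay near the threshold, such as COLGALT2 in HEK293 (limma adjusted p = 0.0487) and TMEM38B in BJ-hTERT (0.0476), both with doxycycline at 72 h. Among those that fold and modify collagen chains, BJ-hTERT at 72 h had 3 of 18 tested genes up and 1 down, where 4.03% of all genes rose and 4.59% fell. P4HA1, a subunit of the prolyl 4-hydroxylase that steadies the triple helix, rose with doxycycline by 0.66 ± 0.11 log2 at 24 h and 0.75 ± 0.11 at 72 h. The prolyl 3-hydroxylase genes P3H2 (LEPREL1 on the array) and P3H1 (LEPRE1) rose by 1.12 ± 0.19 and 0.50 ± 0.15 at 72 h, and TMEM38B, an ion channel gene of the endoplasmic reticulum, fell by 0.42 ± 0.13. The list's median was 0.11, against -0.01 for all genes. PPIB, a proline isomerase of the same enzyme complex, and MIA3, which loads collagen into transport carriers, rose at 24 h by 0.40 ± 0.11 and 0.42 ± 0.11. In BJ-hTERT at 24 h 2 of 18 folding genes and 1 of 11 export genes were called, where 8.85% of all genes were. None of 11 tested export genes was called at 72 h. In HEK293 at 72 h, where 1.21% of all genes were called, the lysyl hydroxylase gene PLOD2 fell by 0.54 ± 0.12. The glycosyltransferase gene COLGALT2 rose there by 0.73 ± 0.18. None of 18 folding genes was called in HEK293 at 24 h, where 0.473% of all genes were.

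Of the list for propeptide removal and crosslinking, at least 1 gene rose in each line. LOX, the lysyl oxidase that crosslinks fibrils, rose in BJ-hTERT by 0.66 ± 0.16 at 24 h and 0.79 ± 0.16 at 72 h, and PXDN, the peroxidase that crosslinks type IV collagen, by 0.66 ± 0.14 at 72 h. TLL1, a protease that removes propeptides, fell by 1.02 ± 0.28 at 72 h, so 2 of 14 tested genes rose and 1 fell there. At 24 h LOX was the single call of 14 in BJ-hTERT, where 8.85% of all genes were called. In HEK293 LOXL2, a relative of LOX, rose by 0.96 ± 0.21 at 72 h as the single call of 14, where 1.21% of all genes were called. Of 11 tested fibril partners, 3 fell in BJ-hTERT at 72 h and none rose, where 4.59% and 4.03% of all genes did, with a list median of -0.07 against -0.01 for all genes. Those that fell were the small proteoglycan genes DCN (-0.73 ± 0.16) and BGN (-0.75 ± 0.20) and the matricellular gene THBS2 (-0.87 ± 0.21).

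In the list of laminins, nidogens and other partners of type IV collagen in basement membranes, 5 of 14 tested genes rose in BJ-hTERT at 72 h and none fell, where 4.03% and 4.59% of all genes did, with a median of 0.28 against -0.01 for all genes. LAMA3 rose by 0.98 ± 0.15, LAMA2 by 0.77 ± 0.13, LAMB3 (named after its value was seen) by 0.49 ± 0.15, LAMB2 by 0.45 ± 0.11 and NID2 by 0.43 ± 0.10. At 24 h LAMA2 alone was called there (0.54 ± 0.13), against 8.85% of all genes. In HEK293 LAMA1, the laminin chain of early embryonic membranes, rose by 0.69 ± 0.12 at 24 h and 1.06 ± 0.12 at 72 h. LAMB2 fell there by 0.55 ± 0.11 at 72 h. Of all genes, 0.473% were called in HEK293 at 24 h and 1.21% at 72 h. Among 12 collagen receptors, ITGA11, the integrin chain that binds fibrillar collagen on fibroblasts, rose in BJ-hTERT by 1.00 ± 0.15 and 1.13 ± 0.15. ITGA10 rose at 24 h (0.73 ± 0.22) and ITGA1 at 72 h (0.53 ± 0.16). In BJ-hTERT 2 of 12 receptors were thus called at each time, against 8.85% and 8.62% of all genes. No receptor was called in HEK293.

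Of 7 tested genes of collagen breakdown, the collagenase gene MMP1 fell in BJ-hTERT at 72 h by 0.58 ± 0.17 and the protease gene FAP rose by 0.62 ± 0.15. Of 19 regulators of collagen genes, the receptor gene TGFBR1 (0.83 ± 0.12) and the pathway inhibitor SMAD7 (0.64 ± 0.17) rose there and the bone factor RUNX2 fell (-0.86 ± 0.20). The growth factor gene TGFB2 was the single call of 19 regulators in BJ-hTERT at 24 h and fell (-0.47 ± 0.14). Of all genes, 8.85% were called in BJ-hTERT at 24 h, and at 72 h 4.03% rose and 4.59% fell. No gene of these lists was called in HEK293 at either time, where 0.473% and 1.21% of all genes were.

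Over time in mock BJ-hTERT cells, 4 of 18 folding genes rose and none fell, where 1.16% and 0.692% of all genes did, with a list median of 0.13 against 0.01 for all genes. P4HA1 rose by 0.57 ± 0.11, P4HA2, an alternative subunit, by 0.62 ± 0.14, their partner P4HB by 0.54 ± 0.12 and PPIB by 0.45 ± 0.11. LOXL1 rose by 1.10 ± 0.15, the collagen-binding gene SPARC by 0.70 ± 0.14, DCN by 0.69 ± 0.16 and ITGA11 by 1.24 ± 0.15. LAMA1 fell by 0.58 ± 0.12, and ADGRG6 (GPR126 on the array), a receptor that binds type IV collagen, fell by 0.72 ± 0.14. In HEK293 mock cells LAMB2 was the single gene of the 8 lists called over time (0.55 ± 0.11), where 0.369% of all genes were. Between the lines, mock BJ-hTERT cells at 24 h had 12 of 18 folding genes higher and 2 lower, 10 of 14 crosslinking and propeptide genes higher and 2 lower, and 8 of 11 fibril partners higher with none lower. Breakdown genes (5 of 7) and receptors (8 of 12) were also higher there with none lower. Export genes had 5 of 11 higher and 2 lower, basement membrane partners 10 of 14 and 2, and regulators 9 of 19 and 4. Of all genes, 21.8% were higher and 28.9% lower there.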

How the data were processed

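RNA of the 24 samples was read on Affymetrix Human Gene 2.1 ST arrays. The deposited log2 values, one per probe set and array, were made by the authors with robust multi-array averaging (RMA); GCOS and Affymetrix Expression Console are named per the submitters' processing notes, without versions. Which arrays were normalised together is not given in the sources used here. Of 352859 probe sets, 257971 with a single gene symbol were averaged per gene (17460 had several symbols and 77428 were not listed). Genes were kept where at least 1 group mean reached log2 2.83, the 40th percentile over genes and groups. Differences were tested with limma 3.58.1 in R 4.3.3 (lmFit and eBayes on all 24 arrays, 8 groups), with Benjamini-Hochberg adjustment over 17329 genes, after the script had been tested on simulated data. Adjusted p-values are from this fit unless a setting is named. Figures were drawn with matplotlib 3.10.9.

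Any collagen could be named, with array values where it was called with doxycycline or among the 6 smallest p-values of a mock time comparison. COL4A2 and COL14A1, whose array values are also given, were chosen outside this rule after their values were seen. From each other list up to 4 called genes of smallest p were named per comparison. Naming the highest or lowest gene of a class was not done, since intensities are not comparable between genes. Titles of the HEK293 doxycycline samples at 24 h spell the line HEK239, read as HEK293 from their cell line label. Same-numbered replicates deviated together little (correlations of -0.05 to 0.09), so numbers were not used as pairs. In BJ-hTERT at 72 h each doxycycline array still correlated best with the mock array of its number (0.027, 0.026 and 0.086). In HEK293 at 24 h this held for number 1 only (0.001). Alternatives covered the summary of probe sets, the filter, quantile normalization, the variance model, the arrays in the fit, a replicate block and leaving out each array. Members and lists were chosen with earlier results of these data known.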

Additional observations from a re-analysis of the deposited data

Results flagged for a closer look

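The doxycycline effect on COL11A1 and on COL12A1 differed between the lines at both times, by a test of the difference itself. For COL11A1 the BJ-hTERT minus HEK293 difference of effects was 0.93 ± 0.23 log2 at 24 h and 1.10 ± 0.23 at 72 h (± SE, n = 3 arrays per group). HEK293 group means of that gene lay below the filter value. For COL12A1, whose mock levels were far higher in BJ-hTERT, it was -0.58 ± 0.17 at 24 h and -0.77 ± 0.17 at 72 h. At 24 h the COL11A1 difference was lost in 6 of 12 fits that left out an array and with only the groups compared, and that of COL12A1 in 10 of 12 such fits and in 6 of 9 other alternatives. At 72 h both were lost with the median of probe sets and in 0 of 12 fits that left out an array. The cause was not tested.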

How the results depend on the processing

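No collagen call reversed under any alternative, and calls of list genes were not checked. Counts of called collagens that moved were as follows. With the median of probe sets there were 3 in BJ-hTERT with doxycycline at 72 h, 0 in HEK293 and 1 in BJ-hTERT over time in mock cells, and 1 and 0 for the differences of effects between lines at 24 and 72 h. That 24 h difference also counted 1 with brighter probe sets only, with no filter, with quantile normalization and with the replicate block, and 0 with only the groups compared. With the replicate block BJ-hTERT at 72 h had 5. The stricter filter gave 5 for the difference between lines at 72 h and 1 for that between times in BJ-hTERT. With only the arrays of the line, mock cells over time had 0 in HEK293 and 3 in BJ-hTERT. With only the groups compared, counts were 0 in HEK293 and 0 in BJ-hTERT with doxycycline at 24 h, 2 in BJ-hTERT at 72 h, and 0 over time in mock cells of each line. Without single arrays, counts ranged from 1 to 2 (HEK293 at 24 h), 1 to 1 (HEK293 at 72 h), 0 to 1 (BJ-hTERT at 24 h), 4 to 6 (BJ-hTERT at 72 h), 1 to 2 and 1 to 4 (mock cells over time, HEK293 and BJ-hTERT), 24 to 28 and 27 to 30 (lines at 24 and 72 h), 0 to 2 and 2 to 3 (effects between lines) and 0 to 0 (effects between times). The causes were not tested. With 3 arrays per group and intensities near background, small differences were not detectable for members with low levels.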
